A study of Mus musculus with 4 samples.

Results

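The p53 pathway genes described here are 38 genes chosen by name: Trp53 itself, the regulators that feed back on it, and genes reported as its direct targets in growth arrest, cell death, DNA repair and metabolism. Of these, 37 were found by symbol among the 11603 genes of the deposited table, and all 37 entered the test. The other, Pidd1, which encodes a death-domain protein of the PIDDosome, is listed under its older symbol Lrdd and is given apart. RNA was sequenced from muscle stem cells, the quiescent precursors that lie along muscle fibres, sorted from hindlimb muscles of C57BL/6 mice, all male and 4 to 5 months old. Sorting kept cells with VCAM1 on their surface and without CD31, CD45 and Sca1. One group of 2 libraries is labelled control and the other group of 2 libraries conditional knockout of Hairless (Hr), a nuclear corepressor. The Cre driver, the deleted exons, the controls' alleles and whether animals were pooled are not stated in the labels. Separate animals are not mentioned for the replicate libraries either, so a test measures the spread between these libraries, which may be technical.

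p53 is a transcription factor that is held low in unstressed cells because the ubiquitin ligase Mdm2, together with its relative Mdm4, binds it and sends it for degradation. Damage or stress frees the protein, which then binds paired half-sites in DNA and switches on genes that stop the cell cycle, repair DNA or start apoptosis, and Mdm2 is itself among those genes, closing a feedback loop. In muscle stem cells the pathway has been tied to keeping the cells quiescent and alive on activation. The RNA of Trp53 says little about the amount of active protein, so its targets are the usual readout at the RNA level.

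The promoters of Ccng1, Bax, Mdm2 and Gadd45a from RefSeq (GRCm38.p6, the build of the files) are shown because they carry the letters that p53 binds, and that of Btg2 because it carries another element. Each run is the 250 bases before the annotated start, 5′ to 3′ on the strand of the gene. Capitals mark p53 half-sites or, in Btg2, the cyclic AMP response element. Single half-sites match the consensus, and those of a pair include the mismatches given for it. The cyclin G1 gene Ccng1 (minus strand, chr11:40755287-40755536) holds a paired p53 site with 1 mismatch and no spacer, 195 bases before the start. The death effector gene Bax (minus strand, chr7:45466899-45467148) holds a pair with 2 mismatches and 1 base between its members, 201 bases before the start. Mdm2 (minus strand, chr10:117710759-117711008) and Gadd45a (minus strand, chr6:67037408-67037657) hold 1 half-site each, and Btg2 (minus strand, chr1:134079156-134079405) holds none.
Ccng1: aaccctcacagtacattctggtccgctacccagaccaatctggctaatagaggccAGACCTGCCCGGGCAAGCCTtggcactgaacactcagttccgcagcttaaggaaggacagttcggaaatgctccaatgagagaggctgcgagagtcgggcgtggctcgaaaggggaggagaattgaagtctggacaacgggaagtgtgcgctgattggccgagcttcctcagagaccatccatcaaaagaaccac
Bax: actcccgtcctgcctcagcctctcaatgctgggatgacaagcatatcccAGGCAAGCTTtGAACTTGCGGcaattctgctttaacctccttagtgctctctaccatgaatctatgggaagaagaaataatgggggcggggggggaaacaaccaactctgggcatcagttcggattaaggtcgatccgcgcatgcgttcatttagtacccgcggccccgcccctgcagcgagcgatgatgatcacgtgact
Mdm2: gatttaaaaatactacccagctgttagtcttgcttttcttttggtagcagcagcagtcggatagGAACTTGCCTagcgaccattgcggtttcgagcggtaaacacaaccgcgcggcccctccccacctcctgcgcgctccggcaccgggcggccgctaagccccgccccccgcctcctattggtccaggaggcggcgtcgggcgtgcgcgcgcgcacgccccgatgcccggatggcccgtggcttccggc
Gadd45a: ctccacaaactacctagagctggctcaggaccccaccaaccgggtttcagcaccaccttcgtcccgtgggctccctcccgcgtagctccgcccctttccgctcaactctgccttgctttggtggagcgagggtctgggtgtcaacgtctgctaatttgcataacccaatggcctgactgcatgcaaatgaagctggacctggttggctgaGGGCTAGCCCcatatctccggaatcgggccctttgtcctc
Btg2: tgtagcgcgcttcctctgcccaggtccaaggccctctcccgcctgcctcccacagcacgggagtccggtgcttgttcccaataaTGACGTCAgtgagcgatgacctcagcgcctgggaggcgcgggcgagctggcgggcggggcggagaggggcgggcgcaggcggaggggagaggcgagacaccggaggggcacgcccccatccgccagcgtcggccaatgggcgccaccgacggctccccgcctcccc

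RefSeq gave promoter windows, from 250 bases before to 50 after a start, for 29 of the 37 genes. A p53 half-site without mismatch stood in 10 of these 29, against 8.42% of the 9271 listed genes with a window. The 10 were Aen, Bax, Ccng1, Ei24, Gadd45a, Mdm2, Polk, Ppm1d, Sesn1 and Trp53. A pair of half-sites, allowing 2 mismatches and a spacer of at most 1 base, stood in 2 of the 29, Bax and Ccng1, against 0.938% of listed genes. Because the half-site consensus reads the same on both strands, 1 scan covers both, and the paired site contains the half-sites it is made of. A further 3 elements were searched in the same windows. The letters TGACGTCA, also the same on both strands, stood in 4 of the 29 (Btg2, Epha2, Plk2 and Ppm1d) against 3.76% of listed genes. The CArG box, a palindrome as well, stood in 0 of 29 against 1.64%, and TATAAA, on the strand of the gene, stood in 3 of 29 (Eda2r, Gadd45b and Gadd45g) against 5.40%. These matches describe the letters in the windows and say nothing of binding in these cells.

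Hr, the targeted gene, had 9.28 and 8.94 RPKM (reads normalised for exon length and library size) in control 1 and control 2 and 7.15 and 7.90 RPKM in knockout 1 and knockout 2. The knockout libraries were the lowest of the 4, but the limma adjusted p was 0.431. Exons are summed, so a deleted part would not show, and every direction below rests on the labels. The libraries held 21757211 to 34101213 reads on the listed genes. All 12 muscle stem cell markers were listed and summed to 3956 and 3278 RPKM in controls and 5137 and 5612 RPKM in knockouts. Of these, 6 were higher without overlap (Myf5, Sdc4, Cd34, Chodl, Chrdl2 and Des), against 25% of all genes. Itga7 was the 1 lower, against 26.2%, and 5 overlapped, Pax7 among them. Endothelial markers (9 of 9 listed) summed to 84.0 and 112 RPKM against 60.1 and 103 RPKM. Fibro-adipogenic markers (7 of 9 listed) summed to 1567 and 1394 RPKM against 1487 and 1188 RPKM. Of these 7, 1 was higher without overlap (Ly6a), 3 were lower (Col3a1, Gsn and Cd248) and 3 overlapped. Ly6a, which encodes the Sca1 protein that the sort selected against, had 47.9 and 49.5 RPKM against 77.4 and 80.7 RPKM. Col3a1 had 294 and 323 RPKM against 204 and 96.1 RPKM. Among blood markers the defining Ptprc was at or below 0.0399 RPKM, while Cd68, Lyz2 and Cd74 each exceeded 4 RPKM in every library. The part of these cell types in the results below was not tested. Myofibre markers (8 of 11 listed, 0 of them at 0 in every library) summed to 197 and 746 RPKM in controls and 86.1 and 68.0 RPKM in knockouts. Control 2 stands apart in this sum, but control 1 was also above both knockouts. All 8 had negative log2 fold changes, against 51.7% of all genes, and 6 were lower without overlap, against 26.2%. Acta1 had 144 and 455 RPKM against 36.5 and 31.9 RPKM. The part of myofibre RNA in the results below was not tested either.

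More of the pathway's genes were lower than higher in the knockout libraries. The lower ones included Mdm2 and Ccng1 of the feedback loop and Bax, Phlda3, Trp53inp1, Eda2r and Zmat3 among the effectors. The higher ones included Gadd45a, Gadd45b and Btg2, which many stresses induce. The sign of the log2 fold change was negative in 23 of the 37 genes, against 51.7% of all genes tested, and positive in 14, against 48.2%. The 2 knockout libraries were both below the 2 control libraries in 18 of the 37, against 26.2% of all genes, and both above them in 10, against 25%, while the groups overlapped in 9. In bulk RNA, fewer cells that express a gene and less of its RNA per cell cannot be told apart. The median log2 fold change was -0.16 over the 37 genes and -0.01 over all genes. Log2 fold changes are differences of the group means of log2(RPKM + 0.5), so changes of genes near or under 0.5 RPKM come out too small.

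No gene of the pathway passed the threshold after adjustment. With limma and Benjamini-Hochberg adjustment over all 11603 genes, 0 of the 37 were called higher, against a background of 0%, and 0 lower, against 0.00862%. The smallest limma adjusted p was 0.163, for Gadd45b. At an unadjusted limma p under 0.05, 9 were lower, against 7.69% of all genes, and 4 were higher, against 10.3%. limma-voom on recovered reads also called 0 in either direction and had 10 lower, against 8.5% of all genes, and 3 higher, against 9.95%, at an unadjusted p under 0.05. The count of 9 depended on single libraries. It was 3 without control 1, against 6.2% of all genes, 3 without control 2, against 3.06%, 4 without knockout 1, against 6.89%, and 10 without knockout 2, against 6.74%. In the authors' deposited table, 3 of the 37 had an adjusted p under 0.05 and were higher (Gadd45a, Gadd45b and Btg2), against 3.59% of all genes, and 2 were lower (Zmat3 and Phlda3), against 4.26%.

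The count of higher genes depended on the scaling of the libraries. The same 18 genes were lower without overlap on the authors' scale, after scaling by the reads listed and after quantile normalization. The authors' library sizes were 85.9% and 92.4% of the reads listed in controls and 75.7% and 75.5% in knockouts. Scaling by the reads listed therefore lowers both knockouts more than both controls. Genes lower without overlap had to stay so on that scale, and higher ones could only be lost. Scaling by the reads listed shifted the median of all genes to -0.20. On that scale 22 genes of the pathway were lower without overlap, against 47.2% of all genes, and 4 were higher, against 11.4%. The unadjusted calls became 15 lower, against 19.2% of all genes, and 2 higher, against 3.7%, in place of 9 and 4. Quantile normalization gave 19 lower, against 24.6%, and 4 higher, against 24.2%. Without control 2, whose myofibre markers were high, 19 were lower without overlap on the authors' scale, against 36.2% of all genes, since 1 control is easier to lie below than 2. Gadd45b, Perp and Casp1 were the 3 genes that were higher without overlap on all 3 scales.

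**Figure D1:**
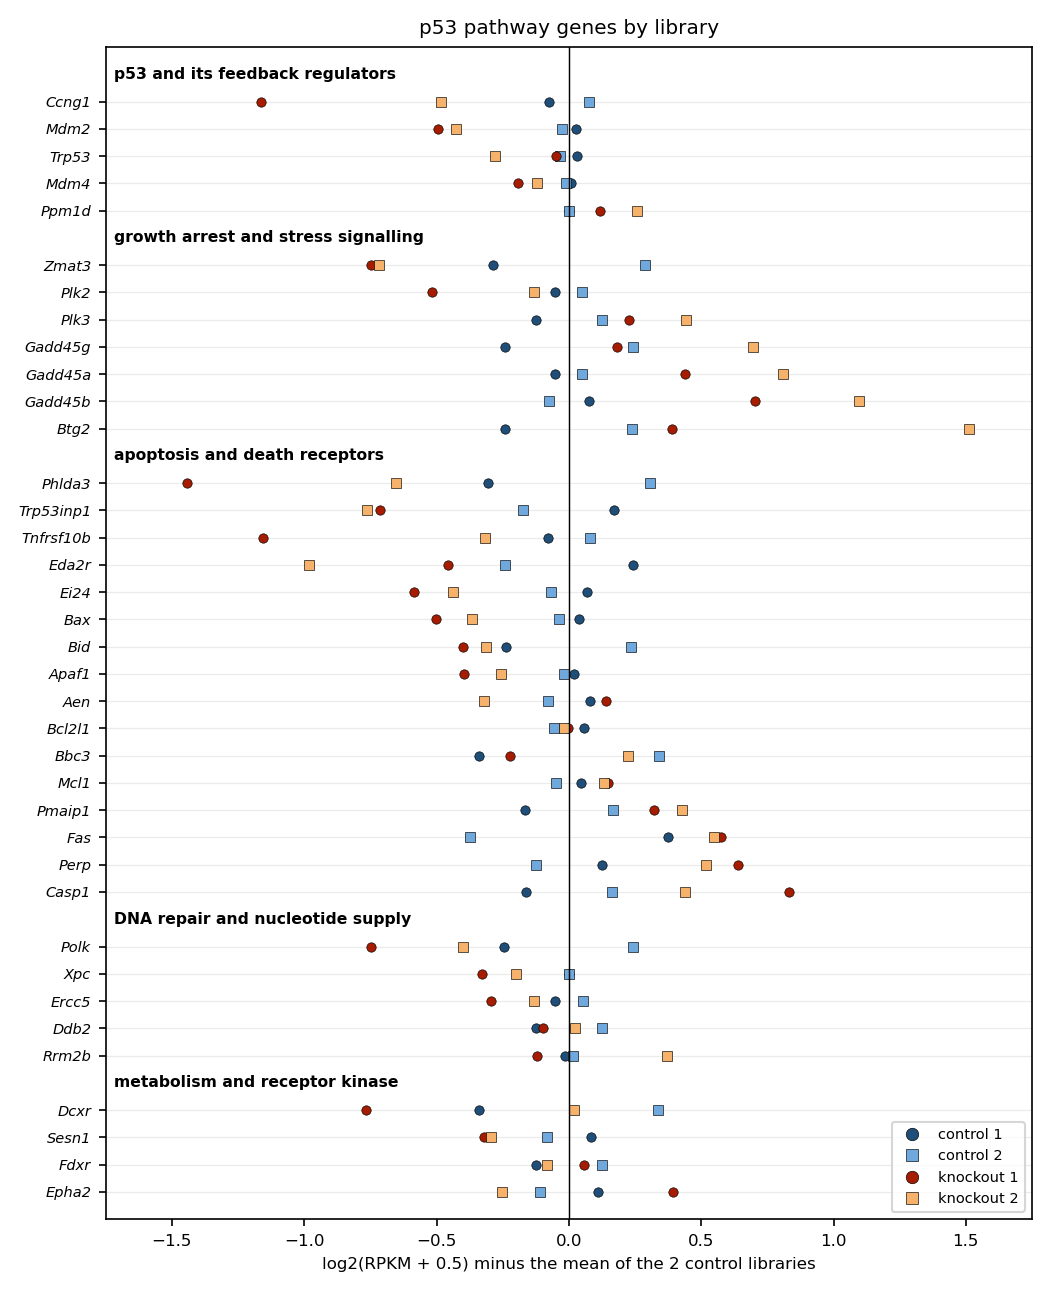
Each row is a p53 pathway gene and each point a library, placed by its log2(RPKM + 0.5) minus the mean of the 2 control libraries, and rows are grouped by role. Of the 37 genes, 18 have both knockout points left of both control points, against 26.2% of all genes. Another 10 have both to the right, against 25%. Phlda3, at a log2 fold change of -1.05, and Btg2, at 0.95, are the ends of the range.

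The feedback circuit was measured in 5 genes, of which 4 were lower without overlap, against 26.2% of all genes, and 1 higher, against 25%. Trp53 (mm10 chromosome 11, 69580359 to 69591873, plus strand) had 53.01 and 50.7 RPKM in controls and 50.1 and 42.7 RPKM in knockouts. Knockout 1 lay close to the controls and knockout 2 below them, for a log2 fold change of -0.16 (standard error 0.15). The labels do not say whether counting used the strand, and reads of the antisense neighbour Wrap53 could fall in the Trp53 exons it overlaps.

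Mdm2 (chromosome 10, 117688888 to 117710758, minus strand), the ligase that marks p53 for degradation, had 51.2 and 49.4 RPKM in controls and 35.6 and 37.2 RPKM in knockouts. The replicates of each group lay within 2 RPKM of each other and the groups far apart, with means of 50.3 ± 1.30 and 36.4 ± 1.18 (SD, n = 2). The log2 fold change was -0.46 (standard error 0.13, limma adjusted p 0.194). In each library Mdm2 stood at 0.966 and 0.973 times the RPKM of Trp53 in control and 0.710 and 0.873 times in knockout. Its relative Mdm4, which blocks the activation domain of p53, had 4.49 and 4.42 RPKM against 3.84 and 4.05 RPKM, a log2 fold change of -0.16 (standard error 0.16).

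Ccng1 (chromosome 11, 40748552 to 40755311, minus strand), whose product cyclin G1 recruits a phosphatase that activates Mdm2, had 15.8 and 17.6 RPKM in controls and 7.16 and 11.8 RPKM in knockouts. Knockout 1 was the lowest library and knockout 2 lay between it and the controls. The mean was 1.76-fold lower in knockout, with a log2 fold change of -0.82 (standard error 0.25, limma adjusted p 0.206). This is the gene whose promoter holds the paired site nearest to the consensus. Ppm1d, the phosphatase Wip1 that switches off p53 and its kinases, had 21.3 and 21.4 RPKM against 23.2 and 25.6 RPKM. Its log2 fold change of 0.19 (standard error 0.14) became -0.04 after scaling by the reads listed.

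**Figure D2:**
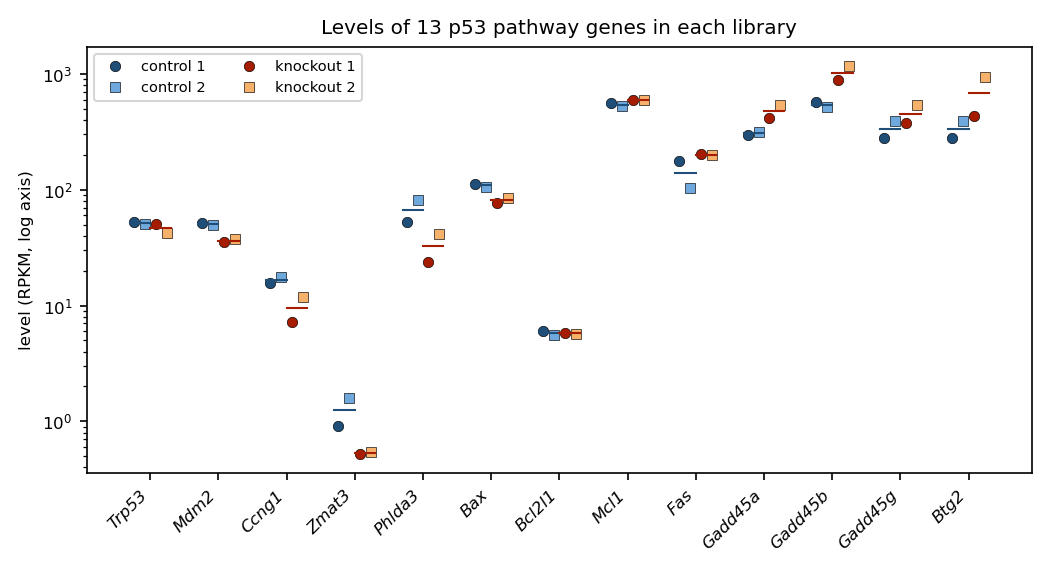
The level of 13 genes is shown in RPKM on a log axis, 1 point per library, with a short line at the mean of each group. Mdm2, Ccng1, Zmat3, Phlda3 and Bax have both knockout points below the controls, Gadd45a, Gadd45b and Btg2 have both above, and Bcl2l1 shows 4 points between 5.56 and 6.05 RPKM.

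Growth arrest and stress signalling held several of the most abundant genes of the pathway. Of its 7 genes, 4 were higher without overlap on the authors' scale, against 25% of all genes, 2 were lower, against 26.2%, and 1 overlapped. Of these 4, Gadd45b alone stayed higher without overlap on every scale. Btg2 and Plk3 overlapped after scaling by the reads listed and after quantile normalization, and Gadd45a overlapped after the latter. The median log2 fold change was 0.44. The Gadd45 proteins bind stress kinases and cell cycle regulators and are induced by p53 and by other stress pathways. Gadd45b (chromosome 10, 80930091 to 80932204, plus strand) had 572 and 516 RPKM in controls and 885 and 1162 RPKM in knockouts. Both knockout libraries were well above the controls, by 1.88-fold in the mean, with a log2 fold change of 0.90 (standard error 0.20, limma adjusted p 0.163). In the authors' deposited table its adjusted p was 0.00587.

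Gadd45a (chromosome 6, 67035096 to 67037457, minus strand), the family member with a well known p53 site in an intron, had 295 and 317 RPKM against 415 and 537 RPKM. The mean was 1.55-fold higher, with a log2 fold change of 0.62 (standard error 0.18, limma adjusted p 0.196), and its adjusted p was 0.0205 in the authors' deposited table. Gadd45g had 278 and 389.7 RPKM against 374 and 535 RPKM, so that knockout 1 fell between the controls. All 3 family members had positive log2 fold changes on the authors' scale, after scaling by the reads listed and after quantile normalization, though that of Gadd45g was 0.03 after the latter.

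Btg2 (chromosome 1, 134075170 to 134079120, minus strand), an antiproliferative partner of the mRNA deadenylase, had 279 and 389 RPKM in controls and 432 and 941 RPKM in knockouts. Knockout 2 was far above every other library and knockout 1 just above control 2. The log2 fold change of 0.95 (standard error 0.39, limma adjusted p 0.283) was 0.39 without knockout 2 and 1.51 without knockout 1. In the authors' deposited table its adjusted p was 0.0310. Plk3, a polo-like kinase of the stress response, had 39.9 and 47.4 RPKM against 51.0 and 59.3 RPKM.

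Immediate-early genes, which sorting and tissue dissociation can induce, were counted in the same libraries. Of 17 listed, 16 had positive log2 fold changes, against 48.2% of all genes, and 10 were higher without overlap, against 25%, with a median of 0.57. limma called 0 of the 17 after adjustment and 7 were higher at an unadjusted p under 0.05, against 10.3%. Their summed level was 10243 and 11676 RPKM in controls and 13986 and 19524 RPKM in knockouts, highest in knockout 2 as for Btg2. Fos had 1325 and 1214 RPKM against 1986 and 2264 RPKM, and Junb had 1177 and 1439 RPKM against 1756 and 3026 RPKM. Their part in the values of Gadd45a, Gadd45b, Gadd45g, Btg2, Plk3 and Mcl1 was not tested.

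The 2 arrest genes that were lower were Zmat3 and Plk2. Zmat3 (chromosome 3, 32334792 to 32366014, minus strand), an RNA-binding protein that acts in p53-dependent tumour suppression, had 0.913 and 1.60 RPKM in controls and 0.525 and 0.548 RPKM in knockouts. The knockout libraries agreed closely and lay below both controls, of which control 2 was the higher. On 103 to 382 reads a library, the log2 fold change was -0.73 (standard error 0.22, limma adjusted p 0.201), and the mean in RPKM was 2.34-fold lower. Its adjusted p of 0.000964 in the authors' deposited table was the smallest of the 37 genes. Plk2, a polo-like kinase and p53 target, had 144 and 155 RPKM against 104 and 136 RPKM, with knockout 2 near the controls.

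Cell death was represented by 16 genes, with a median log2 fold change of -0.21. Of these, 8 were lower without overlap, against 26.2% of all genes, 5 were higher, against 25%, and 3 overlapped. The higher share, 31.25%, was near that of all genes. Of these 5, Pmaip1 and Fas overlapped after scaling by the reads listed and after quantile normalization, and Mcl1 turned lower. Genes that act at or upstream of mitochondria stood on both sides on the authors' scale, with Bax lower, Pmaip1 higher and Bbc3 overlapping. Bax stayed lower on every scale. Phlda3 (chromosome 1, 135766119 to 135769136, plus strand), a membrane-binding competitor of the kinase Akt, had 53.1 and 81.4 RPKM in controls and 23.8 and 41.6 RPKM in knockouts. Replicates differed by over 20 RPKM in control, yet both knockout libraries lay under the lower control. The log2 fold change of -1.05 (standard error 0.32, limma adjusted p 0.208) was the lowest of the 37 genes, and the authors' deposited table gave an adjusted p of 0.00554. It was -0.65 without knockout 1 and -1.44 without knockout 2.

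Bax (chromosome 7, 45461695 to 45466898, minus strand), the effector that permeabilises the mitochondrial outer membrane, had 112 and 106 RPKM in controls and 77.1 and 84.6 RPKM in knockouts. The groups stood apart by far more than the replicates, with means of 109 ± 4.14 and 80.8 ± 5.30 (SD, n = 2), which gives a log2 fold change of -0.43 (standard error 0.13, limma adjusted p 0.211). Bcl2l1, which encodes Bcl-xL, had 6.05 and 5.56 RPKM against 5.78 and 5.72 RPKM, with overlapping groups. Mcl1, a short-lived survival protein, had 559 and 524 RPKM against 600.2 and 594 RPKM, higher on the authors' scale but at a log2 fold change of -0.10 when scaled by the reads listed and -0.32 after quantile normalization. The ratio of Bax to Mcl1 in RPKM, which is the same under any scaling by 1 factor per library, was 0.201 and 0.203 in control and 0.128 and 0.142 in knockout. Against Bcl2l1 the ratio was 18.6 and 19.1 in control and 13.3 and 14.8 in knockout.

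Trp53inp1 (chromosome 4, 11156431 to 11174379, plus strand), a stress protein that promotes p53-dependent death and autophagy, had 5.87 and 4.51 RPKM in controls and 2.94 and 2.83 RPKM in knockouts. Both knockout libraries lay well under the controls, with a log2 fold change of -0.74 (standard error 0.19, limma adjusted p 0.185). Eda2r, the ectodysplasin A2 receptor, had 15.3 and 10.8 RPKM against 9.24 and 6.27 RPKM, a log2 fold change of -0.72 (standard error 0.26). Ei24, a membrane protein of the endoplasmic reticulum, had 19.2 and 17.5 RPKM against 12.1 and 13.4 RPKM, a log2 fold change of -0.51 (standard error 0.15). In these genes no knockout value reached a control value. The death receptor gene Tnfrsf10b had 2.69 and 3.07 RPKM against 1.01 and 2.21 RPKM, with knockout 2 much nearer the controls. Apaf1, the scaffold of the apoptosome, had 2.43 and 2.36 RPKM against 1.70 and 1.92 RPKM. Bid, which links death receptors to mitochondria, had 2.47 and 3.62 RPKM against 2.15 and 2.31 RPKM.

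Pmaip1 and Bbc3 encode the BH3-only proteins Noxa and Puma, which act upstream of Bax. Pmaip1 had 46.9 and 59.2 RPKM in controls and 65.9 and 71.0 RPKM in knockouts, a log2 fold change of 0.37 (standard error 0.16). Bbc3 had 10.7 and 17.5 RPKM against 11.7 and 16.1 RPKM, so that the replicates spread more than the groups. Aen, an apoptosis-enhancing nuclease, likewise overlapped, with 19.4 and 17.3 RPKM against 20.3 and 14.6 RPKM. Fas, the death receptor, had 176 and 104 RPKM against 202 and 198 RPKM. Its control libraries lay far apart, and the log2 fold change of 0.56 was 0.94 without control 1 and 0.19 without control 2.

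Perp, a desmosomal protein, had 1.57 and 1.23 RPKM in controls and 2.44 and 2.21 RPKM in knockouts, on 49 to 120 reads a library, and a log2 fold change of 0.58 (standard error 0.17). Casp1, the inflammatory caspase, was the least abundant of the 37 genes, with 0.230 and 0.416 RPKM against 0.957 and 0.610 RPKM. These values rest on 8 and 13 reads in control and 37 and 15 reads in knockout, and the limma adjusted p was 0.206. Blood cell markers (7 of 9 listed, 4 of them under 1 RPKM in every library, 0 at 0 in every library) summed to 26.6 and 30.9 RPKM in controls and 111 and 35.0 RPKM in knockouts, and Cd74 made up 98.9 RPKM of the sum in knockout 1. Their part in the value of Casp1 was not tested. Lrdd, the older name of Pidd1, had 0.133 and 0.370 RPKM against 0.154 and 0.0807 RPKM, with overlapping groups.

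**Figure D3:**
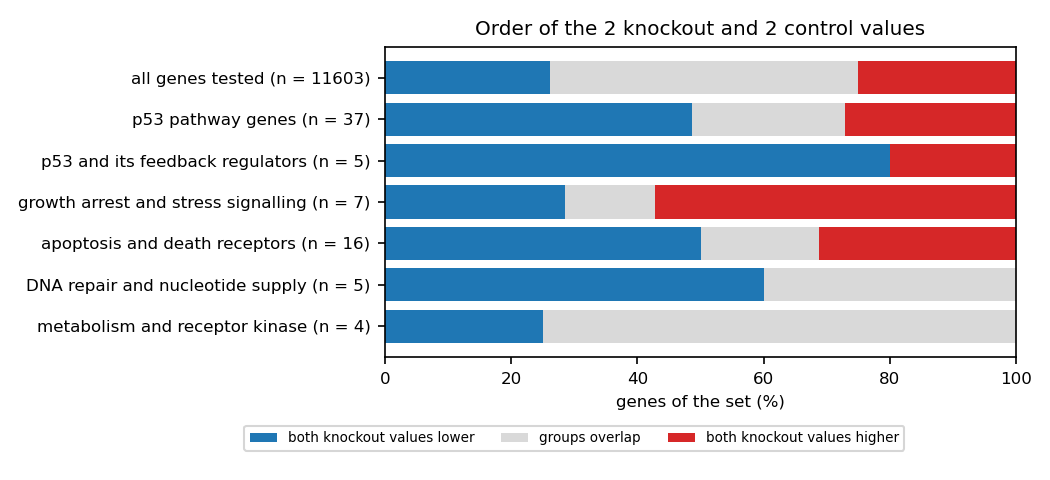
Bars give the share of genes in each set whose 2 knockout values both lie below (left) or above (right) the 2 control values, with overlapping groups between. The left share is 26.2% for all genes and 18 of 37 for the p53 pathway. The right share is 25% for all genes and, among the roles, largest for growth arrest and stress signalling, with 4 of 7. All shares are on the authors' scale. Of these 4 genes, Btg2, Plk3 and Gadd45a overlapped on another scale.

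DNA repair and nucleotide supply were measured in 5 genes, 3 of them lower without overlap, against 26.2% of all genes, and 2 overlapping. Polk (chromosome 13, 96480689 to 96542485, minus strand), a translesion polymerase, had 1.20 and 1.88 RPKM in controls and 0.695 and 1.02 RPKM in knockouts. Its log2 fold change was -0.57 (standard error 0.23, limma adjusted p 0.274). The damage sensor gene Xpc had 2.33 and 2.33 RPKM against 1.76 and 1.96 RPKM. Ercc5, an endonuclease of nucleotide excision repair, had 4.46 and 4.84 RPKM against 3.70 and 4.19 RPKM. The differences in both were under 2 standard errors. Ddb2, another sensor of ultraviolet damage, had 1.94 and 2.40 RPKM against 1.98 and 2.20 RPKM. Rrm2b, a p53-inducible subunit of the enzyme that makes deoxynucleotides, had 1.27 and 1.31 RPKM against 1.15 and 1.82 RPKM. In neither did the groups separate.

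The remaining 4 genes act in metabolism or as a receptor. Sesn1, encoding sestrin 1, which restrains the growth kinase mTORC1, had 10.6 and 9.42 RPKM in controls and 7.90 and 8.07 RPKM in knockouts, a log2 fold change of -0.31 (standard error 0.16). It was the 1 of the 4 whose groups stood apart, a share near the 26.2% of all genes that were lower without overlap. Dcxr, a carbonyl reductase, had 3.09 and 5.23 RPKM against 2.17 and 4.10 RPKM, and Fdxr, the ferredoxin reductase of mitochondria, had 2.94 and 3.59 RPKM against 3.40 and 3.04 RPKM. Epha2, the ephrin receptor kinase, had 12.3 and 10.5 RPKM against 15.1 and 9.46 RPKM.

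Of the 29 genes with a promoter window, the 10 with a p53 half-site included 7 that were lower without overlap, 2 that were higher (Gadd45a and Ppm1d) and 1 that overlapped (Aen). Among all 29 there were 14 lower, 8 higher and 7 overlapping. Over all genes, 26.2% were lower without overlap and 25% higher. Bax and Ccng1, the 2 genes with paired sites, were both lower. A link between these sites and the direction of change was not tested.

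Other reported targets of p53 were counted in the same way. Of 38 named, 36 were listed, of which 8 (22.2%) were lower without overlap, 7 (19.4%) higher and 21 overlapping, with a median log2 fold change of 0.03. Both shares were below those of all genes, 26.2% and 25%. At an unadjusted limma p under 0.05, 4 were lower (11.1%, against 7.69% of all genes) and 1 higher (2.78%, against 10.3%), and limma called 0 after adjustment. Cdkn1a, which encodes the cell cycle inhibitor p21 and is the best known arrest target, had 949.7 and 1144 RPKM in controls and 1171 and 1689 RPKM in knockouts. Its log2 fold change was 0.43 (standard error 0.24, limma adjusted p 0.395), and its adjusted p was 0.216 in the authors' deposited table. The sign was that of the Gadd45 genes and opposite to that of Mdm2 and Bax, but Cdkn1a passed in neither. The authors' deposited table had an adjusted p under 0.05 for 4 lower targets, against 4.26% of all genes, and 1 higher, against 3.59%. The lower ones were Psrc1, Gtse1 and Ckap2, which take part in spindle assembly and mitotic entry, and Igfbp3, which binds insulin-like growth factors. Psrc1 had 2.82 and 3.99 RPKM against 0.288 and 0.832 RPKM, and Gtse1 had 0.729 and 1.27 RPKM against 0.157 and 0.0447 RPKM. All 4 knockout values of this pair lay far under the controls. Igfbp3 had 16.5 and 21.2 RPKM against 8.67 and 10.7 RPKM, and Ckap2 had 4.21 and 4.92 RPKM against 2.61 and 1.87 RPKM. The higher one was Cd82, a tetraspanin, with 613 and 612 RPKM against 906 and 995 RPKM.

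Kinases, acetyltransferases and other cofactors that act on p53 were the next group. Of 38 named, 37 were listed, of which 14 (37.8%, against 26.2% of all genes) were lower without overlap and 9 (24.3%, against 25%) higher, with a median log2 fold change of -0.09. limma called 0 after adjustment. At an unadjusted p under 0.05, 5 were lower (13.5%, against 7.69%) and 4 higher (10.8%, against 10.3%), so the higher shares were near those of all genes. The authors' deposited table called 4 of them at 0.05, each lower in knockout (10.8%, against 4.26% of all genes). Chek2, the checkpoint kinase that stabilises p53, had 1.26 and 2.11 RPKM against 0.800 and 0.893 RPKM. Hipk2, a kinase that directs p53 towards apoptotic targets, had 6.60 and 5.51 RPKM against 3.97 and 3.76 RPKM. Setd8, the current Kmt5a, which methylates p53 and histone H4, had 8.52 and 12.4 RPKM against 6.08 and 5.83 RPKM. Cdkn2a, the locus of the Mdm2 inhibitor p19Arf and of p16, had 0.699 and 0.654 RPKM against 0.297 and 0.156 RPKM. Transcripts of the locus cannot be told apart in these values.

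Cell cycle genes that p53 lowers through p21 and the DREAM complex are reached indirectly. All 26 named were listed, of which 24 were lower without overlap, against 26.2% of all genes, and 0 higher, with a median log2 fold change of -0.96. limma called 0 after adjustment, with 20 lower and 0 higher at an unadjusted p under 0.05, against 7.69% and 10.3%, and the authors' deposited table had 20 lower, against 4.26%. Melk, a mitotic kinase, had 0.638 and 0.806 RPKM against 0.0391 and 0.0614 RPKM, and Prc1, a spindle midzone protein, had 1.73 and 2.52 RPKM against 0.725 and 0.644 RPKM. In both, each knockout value lay far under the controls. The mitotic cyclin gene Ccnb2 had 4.09 and 7.09 RPKM against 1.06 and 0.711 RPKM, and Ccna2, which encodes the cyclin of S phase and G2, had 1.59 and 3.02 RPKM against 0.323 and 0.432 RPKM. Aurkb, a kinase of chromosome segregation, had 1.11 and 2.21 RPKM against 0.105 and 0.0413 RPKM, and Bub1, of the spindle checkpoint, had 0.485 and 0.781 RPKM against 0.107 and 0.0839 RPKM. Top2a, the topoisomerase of dividing cells, had 1.17 and 1.96 RPKM against 0.228 and 0.216 RPKM. Mki67, whose protein Ki-67 coats mitotic chromosomes, had 0.976 and 1.98 RPKM against 0.142 and 0.157 RPKM. In all 8 genes control 2 was the highest library. The lowest read number of a gene of this list in a library was 2. Its most abundant genes, Cks2 and Cks1b, differed less. Cks2 had 36.6 and 39.8 RPKM against 36.2 and 30.8 RPKM, a log2 fold change of -0.19. Cks1b had 32.1 and 27.1 RPKM against 33.1 and 23.0 RPKM, with overlapping groups.

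**Figure D4:**
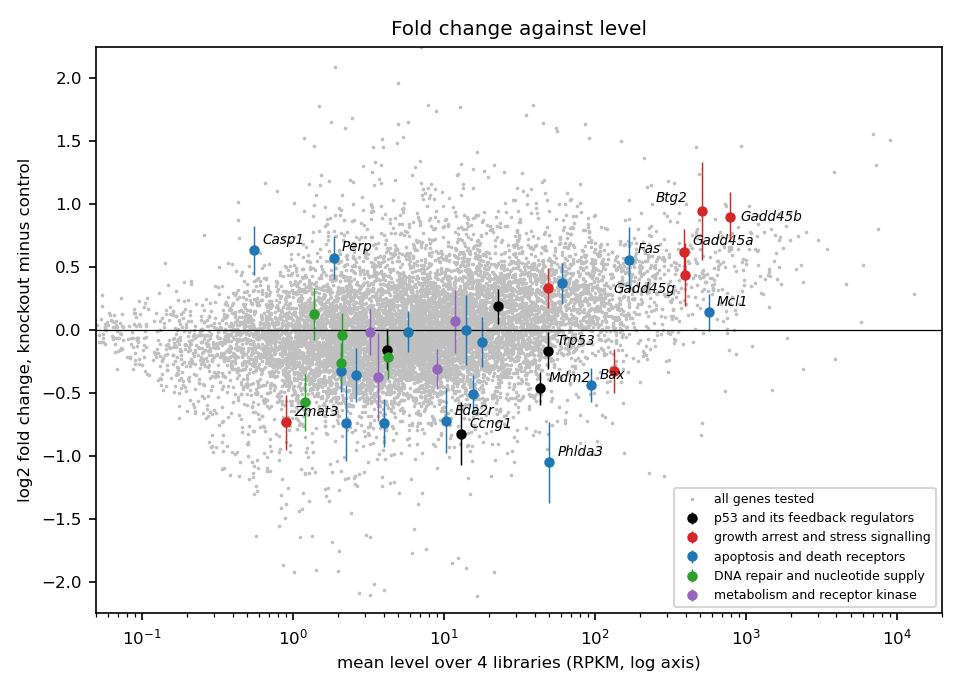
The log2 fold change is plotted against the mean level in RPKM (log axis), with bars of 1 standard error for the p53 pathway genes coloured by role and grey points for all genes tested, of which 134 lie outside the axes. Gadd45b, Btg2 and Gadd45a lie high at the abundant end, and Phlda3, Ccng1 and Zmat3 lie low over a wide range of levels.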

How the data were processed

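RNA of 2 control and 2 knockout libraries was made into cDNA from 10 ng of total RNA with a low-input template-switching kit, per the labels' protocols. The submitters' processing notes name STAR, Trim Galore, edgeR and featureCounts of the Subread package, with mm10 (GRCm38). Versions, settings and the reason that 11603 genes are listed are not given in these sources. The authors deposited RPKM values per library, a unit taken from the values and not from the header: multiplied by gene length and divided by 1 step per library, 100% of values came within 0.01 of whole reads. The authors also deposited a q-value (an adjusted p) per gene. Columns beginning with Ct were taken as control and, by exclusion, those beginning with Fl as knockout.

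limma 3.58.1 in R 4.3.3, with a mean-variance trend, was fitted to log2(RPKM + 0.5) of all genes. Group was the only term, with Benjamini-Hochberg adjustment and a threshold of 0.05. The fit was also run on simulated counts with a fixed spread, which need not match the spread of these libraries. With 2 libraries a group, precision is limited by the spread between them. Every gene of the pathway is reported by role. Of the other lists, Cdkn1a and up to 8 genes called in the authors' deposited table, by smallest limma p, are named. The members and lists were chosen with earlier results of these data known. Alternatives were other pseudocounts, a filter at 1 RPKM, other scalings, limma-voom on the recovered reads, no trend, a replicate block and leaving out each library. Promoters came from RefSeq (GRCm38.p6) by gene ID.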

Additional observations from a re-analysis of the deposited data

How the results depend on the processing

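After adjustment limma called 0 of the 37 genes under 11 of the 12 alternatives. The exception was the replicate block, which called 5 lower (Phlda3, Ccng1, Eda2r, Trp53inp1 and Zmat3), against 3.56% of all genes, and 2 higher (Gadd45b and Btg2), against 5.09%. At an unadjusted limma p under 0.05 the block had 12 lower, against 13.6% of all genes, and 9 higher, against 16.3%. Nothing in the labels says that equal numbers mark shared animals or days. Deviations of control 1 and knockout 1 from their group means correlated at 0.414 over 10007 genes, and with 2 pairs this does not show pairing. Leaving out 1 library at a time gave 3 to 10 genes lower and 3 to 4 higher at an unadjusted p under 0.05, and a median log2 fold change between -0.19 and -0.12. Scaling by the reads listed gave 15 lower and 2 higher, against 19.2% and 3.7% of all genes, and a median of -0.36, with 4 genes higher without overlap, as did quantile normalization; these overlap counts were added after seeing the data.

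Of 37 genes, 27 kept the sign of their log2 fold change in every alternative that fitted them. Among the other 10, scaling by the reads listed gave -0.045 for Rrm2b, -0.23 for Bbc3, -0.10 for Mcl1, -0.16 for Epha2 and -0.043 for Ppm1d. Quantile normalization gave 0.048 for Ddb2, 0.024 for Bcl2l1, -0.038 for Bbc3, -0.32 for Mcl1 and 0.057 for Fdxr. Bbc3 was also -0.00042 with a pseudocount of 1 and -0.013 with limma-voom. Without 1 library at a time, the log2 fold change ranged from -0.16 to 0.087 for Ddb2, from -0.12 to 0.37 for Rrm2b, from -0.32 to 0.14 for Aen and from -0.067 to 0.045 for Bcl2l1. It ranged from -0.34 to 0.34 for Bbc3, from -0.77 to 0.019 for Dcxr, from -0.14 to 0.11 for Fdxr and from -0.25 to 0.39 for Epha2. The cause was not tested. Casp1 and Zmat3 left the fit under the filter at 1 RPKM. The lowest read number was 8, for Casp1 in control 1.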

Other observations

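Across the 37 genes of the pathway, the log2 fold change had a Spearman correlation of -0.41 with the summed exon length and 0.33 with the mean level in RPKM. Over all 11603 genes the same correlations were -0.30 and 0.32. With genomic span the correlation was -0.25 over the 37 genes and -0.25 over all genes. These describe the same 4 libraries and the points share their depth and scaling. By genomic span, the Gadd45 genes and Btg2 are among the shortest genes of the pathway, and they are among its most abundant. The spans are 1791 bases for Gadd45g, 2114 bases for Gadd45b, 2362 bases for Gadd45a and 3951 bases for Btg2. Dcxr spans 1883 bases, and its groups overlapped. Phlda3, with 3018 bases, and Bax, with 5204 bases, are short too and were lower in both knockout libraries.

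Rpl5 and Rpl11, ribosomal proteins whose free forms inhibit Mdm2, were higher in both knockout libraries than in both controls. So were 25% of all genes and 9 of the 37 listed genes (24.3%) that act on p53, the group these come from. The levels of Rpl5 were 80.9 and 71.9 RPKM in controls and 101 and 108 RPKM in knockouts, and those of Rpl11 were 109 and 96.9 RPKM and then 137 and 130.4 RPKM. Their limma adjusted p values were 0.208 and 0.250, so neither passed. Both were chosen after their values were seen.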
